A study of Homo sapiens with 6 samples.

Results

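The nuclear-encoded subunits of the respiratory chain and the ATP synthase were examined in K562 cells with and without knockdown of the long noncoding RNA lncRNA-IUR1. Members were taken by gene symbol, as the protein-coding genes named NDUFA, NDUFB, NDUFC, NDUFS or NDUFV with a number (complex I), SDHA to SDHD (complex II), UQCR or CYC1 (complex III), COX4 to COX8 (complex IV) and ATP5F, ATP5M or ATP5P (complex V). In RefSeq, 87 genes met this rule, and 81 of them were among the 12486 genes of the table. These were 37 of 37 genes of complex I, 4 of 4 of complex II, 10 of 10 of complex III, 12 of 17 of complex IV and 18 of 19 of complex V. The 37 include the readthrough gene NDUFC2-KCTD14. They leave out NDUFAB1 (195 FPKM), also a complex I subunit, whose symbol does not meet the rule and which is counted below with the electron carriers. The 6 genes not listed were ATP5MGL, COX4I2, COX6A2, COX7A1, COX7B2 and COX8C, and the table lists no gene whose SD over the 6 libraries is under 0.05 FPKM.

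K562 is a human chronic myeloid leukemia line that carries the Bcr-Abl fusion. RNA was sequenced from 3 libraries of cells stably expressing a control shRNA against luciferase (sh-luc) and 3 of cells with a stably expressed lncRNA-IUR1 shRNA (sh-IUR1, whose target is called lncRNA-up91 in the sample labels), with no further treatment named in the labels. In each group the labels number the libraries r1 and r2 and leave the third without a number, and values are given below in the order unnumbered, r1, r2. The knockdown rests on 1 shRNA in 1 cell line, and the level of lncRNA-IUR1 itself was not analysed here.

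The respiratory chain passes electrons from NADH (through complex I) and succinate (through complex II) by ubiquinone to complex III, by cytochrome c to complex IV and on to oxygen, and complexes I, III and IV pump protons across the inner mitochondrial membrane. Complex V, the ATP synthase, uses the proton gradient to make ATP. Most subunits are encoded in the nucleus and imported, whereas a few hydrophobic ones, among them the catalytic subunits of complex IV, are encoded in mitochondrial DNA, so both genomes have to supply matching parts. The nuclear genes are known to share regulators, among them nuclear respiratory factor 1 (NRF1), the ETS-family factor GABPA, and YY1.

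To show what the members share in sequence, the letters of these factors' motifs were searched on both strands of the RefSeq promoter windows, from 250 bases before to 50 bases after the transcription start, which were given for 66 of the 81 members. The NRF1 letters GCATGCGC were in 12 windows (18.2%, against 3.21% of all 27305 windows and 5.55% of the windows of genes tested here). The ETS letters CCGGAAGT were in 11 (16.7%, against 4.35% and 9.0%), and the YY1 letters AAGATGGCG were in 9 (13.6%, against 1.81% and 4.04%). At least 1 of the 3 was in 26 windows (39.4%, against 8.76% and 17.2%). The NRF1 letters and their reverse complement overlap, so that 1 site can match on both strands. The matches in 7 of the 21 subunits taken as core (the redox and catalytic subunits and their closest partners, such as UQCRC1, COX5B and ATP5F1C), and in a pair of other subunits described below (NDUFA13, NDUFB8), are printed with 10 bases on each side, read along the strand of the gene, with the motif in capitals.
NDUFS7 NRF1, chr19:1383824-1383851, plus strand: tccggtttccGCATGCGCtccgagccgc
NDUFS7 YY1, chr19:1383914-1383942, plus strand: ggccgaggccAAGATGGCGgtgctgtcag
SDHB NRF1, chr1:17054215-17054242, minus strand: agccaaatggGCATGCGCcgctactgcg
SDHB YY1, chr1:17054004-17054032, minus strand: gtcaggagccAAGATGGCGgcggtggtcg
SDHD NRF1, chr11:112086755-112086782, plus strand: ctgtgtttgcGCATGCGCgacgggtgtg
SDHD ETS (reverse complement), chr11:112086785-112086812, plus strand: ccgcctctcgACTTCCGGttcacccagc
UQCRC1 YY1, chr3:48609605-48609633, minus strand: ctgcagctggAAGATGGCGgcgtccgtgg
COX5B NRF1, chr2:97645916-97645943, plus strand: gcagagctggGCATGCGCaatttccgcc
COX5B ETS, chr2:97646015-97646042, plus strand: aagcccgcccCCGGAAGTccctcctgtc
COX5B ETS, chr2:97646047-97646074, plus strand: cagcttgttcCCGGAAGTtttgctgcta
ATP5F1A ETS (reverse complement), chr18:46098328-46098355, minus strand: gaggggcagtACTTCCGGgtcaggtggg
ATP5F1C NRF1, chr10:7788147-7788174, plus strand: gagcttcggcGCATGCGCgctgaggcct
NDUFA13 ETS, chr19:19516205-19516232, plus strand: ccgcccgggaCCGGAAGTgtgggatact
NDUFB8 YY1, chr10:100529836-100529864, minus strand: gaagaaggtgAAGATGGCGgtggccaggg
Coordinates are those of GRCh38.p14, and the sequences are from RefSeq. The 17 NRF1 matches and 12 ETS matches in the members all began before the transcription start, at most 218 and 160 bases upstream. In contrast, 8 of the 9 YY1 matches began 10 to 25 bases after it, and in those 8 the ATG inside the letters lay on an annotated start codon of the gene (GENCODE release 44). The ninth, in ATP5PF, began 207 bases upstream. These are matches of letters, and binding of the factors was not measured here.

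Values are FPKM, which are per transcript length, so levels of different genes can be set beside each other approximately. The annotation and transcript lengths behind them are not given, which limits the ranking of genes. The subunits were abundant. Of the 81 listed members, 57 had a mean of at least 100 FPKM over the 6 libraries, 4 were under 1 FPKM, and all others were at 31.1 FPKM or more. The highest were ATP5F1B (957 FPKM), the catalytic beta subunit of the ATP synthase, UQCRH (929 FPKM), the hinge protein of complex III, and COX4I1 (905 FPKM), a large subunit of complex IV. In complex I the highest was NDUFS5 (469 FPKM), and in complex II SDHD (137 FPKM), one of the membrane anchors. The median member of complex IV was at 341 FPKM and that of complex V at 246 FPKM, compared with 125 FPKM in complex I, 123 FPKM in complex II and 145 FPKM in complex III. Within complex I the means ran from 31.1 FPKM for NDUFS1, which carries iron-sulfur clusters, to the level of NDUFS5, leaving out NDUFC2-KCTD14. SDHC, the other membrane anchor of complex II, was the lowest of its complex at 43.8 FPKM.

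**Figure D1:**
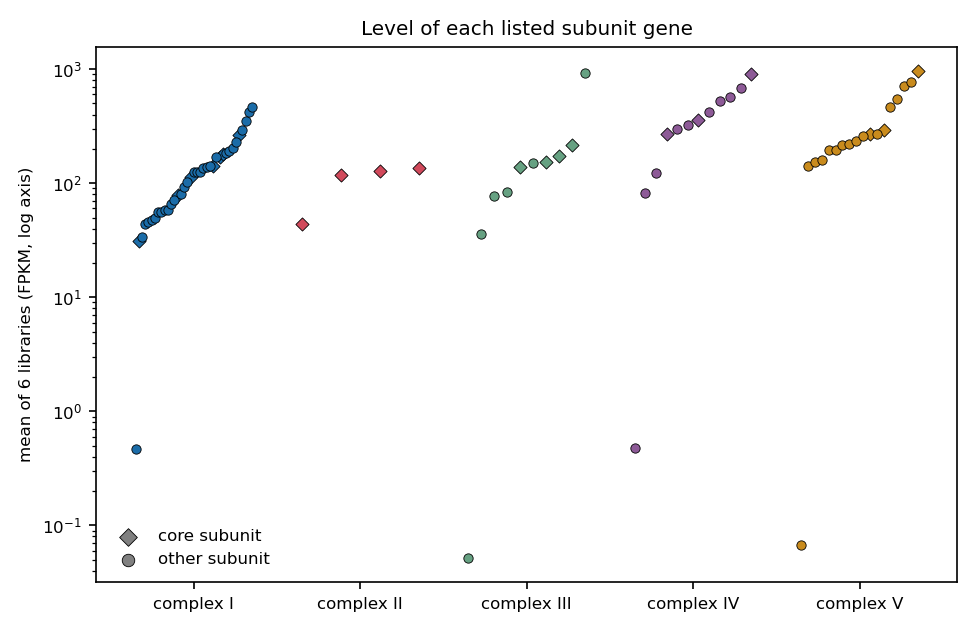
Mean FPKM over the 6 libraries (log axis) of each of the 81 listed subunit genes, ordered within complexes I to V, with diamonds for core subunits and circles for the others. All but 4 genes lie at 31.1 FPKM or above, and the 4 lowest points are NDUFC2-KCTD14, UQCRHL, COX6B2 and ATP5MF-PTCD1.

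The 4 genes under 1 FPKM are 2 readthrough genes, a copy of UQCRH and a tissue-restricted isoform. NDUFC2-KCTD14 (0.47 FPKM) and ATP5MF-PTCD1 (0.067 FPKM) overlap NDUFC2 and ATP5MF, and UQCRHL (0.052 FPKM) is a near-identical copy of UQCRH, so the reads of these pairs can be shared and their values are uncertain. COX6B2, known from testis, was at 0.48 FPKM beside 420 FPKM for its ubiquitous paralog COX6B1. UQCRHL and ATP5MF-PTCD1 had a mean under 0.1 FPKM and were not tested, which leaves 79 tested members.

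To ask whether knockdown of lncRNA-IUR1 was accompanied by a change of the respiratory chain genes, sh-IUR1 was compared with sh-luc by limma on log2(FPKM + 1) over the 12276 genes that averaged 0.1 FPKM or more. No member passed the test. With limma and Benjamini-Hochberg adjustment, 0 of 79 members passed an adjusted p of 0.05 (background 0%, as 0 of 12276 genes passed), and the smallest adjusted p of a member was 0.930. At an unadjusted p of 0.05, 5 members were lower in sh-IUR1 (NDUFC1, NDUFA13, UQCRFS1, COX6B1 and ATP5MF), or 6.33% against 0.994% of all genes tested, and 0 were higher, against 1.65%. In GRCh38.p14 these genes lie at chr4:139289917-139302551 (NDUFC1), chr19:19516225-19528198 (NDUFA13), chr19:29205320-29213151 (UQCRFS1), chr19:35648323-35658782 (COX6B1) and chr7:99458195-99466167 (ATP5MF). All 3 sh-IUR1 libraries lay below all 3 sh-luc libraries for 11 members, or 13.9% against 3.03% of all genes, and above them for 0 members, against 4.04%. With 3 libraries per group the smallest p that an exact two-sided permutation test can give is 0.1. Members come from the same libraries and are not replicates of one another, and in bulk RNA fewer cells of a kind and less RNA per cell cannot be told apart.

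The differences were small and mostly of one sign. The log2 difference was below 0 for 63 of 79 members, against 5157 of 12276 genes (42.0%), and its median was −0.06 for the members against 0.02 for all genes. It ran from −0.19 for COX6B1 to 0.11 for NDUFV3, with standard errors of 0.05 to 0.13 and a median half-width of the 95% interval of 0.15. By complex the median was −0.06 for complex I (28 of 37 below 0), −0.07 for complex II (3 of 4), −0.05 for complex III (7 of 9), −0.07 for complex IV (10 of 12) and −0.05 for complex V (15 of 17). The count below 0 was 57 with quantile normalization and 66 with median-ratio scaling, but it did not hold without 1 control library. Without the unnumbered sh-luc library, 40 of 79 members were below 0, the median was −0.0009 against 0.0047 for all genes, and 1 member (NDUFC1) was left at an unadjusted p under 0.05 in limma, with a smallest adjusted p of 0.9997. The medians by complex were then −0.0018, −0.0208, 0.0076, −0.0020 and 0.0120 for complexes I to V.

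**Figure D2:**
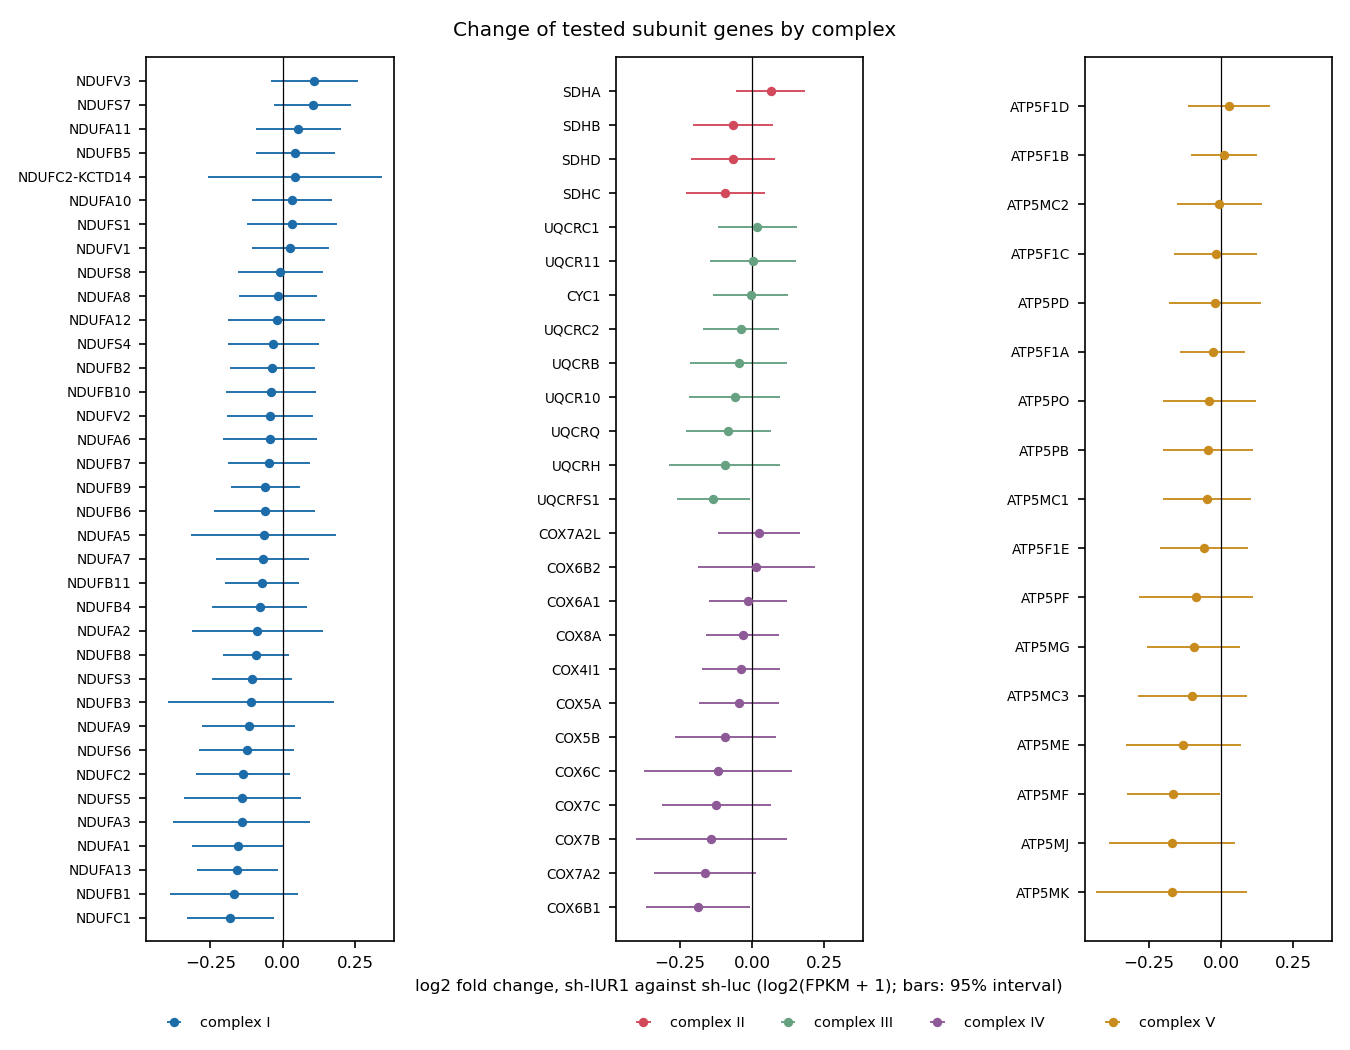
Log2 fold change of sh-IUR1 against sh-luc on log2(FPKM + 1) for the tested subunit genes reported here, by complex, with points for the estimate and bars for the 95% interval from limma (3 libraries per group). Most points lie left of 0, and the bars of all but 5 genes cross 0.

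Complex I, the NADH dehydrogenase, has 7 nuclear-encoded core subunits that hold the flavin and the iron-sulfur clusters. NDUFV1, which binds NADH and the flavin, was at 170.51, 175.83 and 190.87 FPKM in sh-luc and 183.79, 185.65 and 177.1 FPKM in sh-IUR1. NDUFS7, which holds the last iron-sulfur cluster before ubiquinone, was at 156.72, 164.77 and 173.55 FPKM in sh-luc and 179.2, 182.73 and 170.1 FPKM in sh-IUR1. The groups overlapped for both genes, in NDUFS7 through the r2 libraries, and its log2 difference was 0.10 ± 0.06 (SE, n = 3 per group, adjusted p = 0.930 in limma), or 0.07 without the unnumbered sh-luc library. NDUFS3 was the only one of the 7 core subunits without overlap, at 127.22, 113.22 and 115.71 FPKM against 106.59, 111.44 and 112.37 FPKM, with a log2 difference of −0.11 ± 0.06 (SE) and neighbouring values of 113.22 and 112.37 FPKM across the groups. The difference of NDUFS3 was −0.06 without the unnumbered sh-luc library. For NDUFV2, NDUFS1 and NDUFS8, which carry other clusters, the log2 differences were −0.04, 0.03 and −0.01, and each 95% interval included 0.

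The 30 other tested genes of complex I mostly encode subunits that surround the core. Of these genes, 5 had no overlap between groups, all lower in sh-IUR1 (3.03% of all genes tested were lower and 4.04% higher without overlap). NDUFC1 was at 88.1, 84.85 and 82.62 FPKM in sh-luc (85.2 ± 2.76, SD, n = 3) and 70.74, 81.7 and 72.93 FPKM in sh-IUR1 (75.1 ± 5.80). Its log2 difference was −0.18 ± 0.07 (SE), the lowest unadjusted p of the members (0.0227 in limma), and it was −0.16 without the unnumbered sh-luc library. The r1 library of sh-IUR1 lay within 1 FPKM of the lowest sh-luc library. NDUFA13, also known as GRIM-19, was at 387.83, 354.18 and 369.07 FPKM in sh-luc and 310.31, 344.18 and 342.08 FPKM in sh-IUR1, a log2 difference of −0.16 ± 0.06 (SE). Here the unnumbered libraries were the highest and the lowest of all 6.

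NDUFB8, a membrane-arm subunit often used as a marker of assembled complex I, had the tightest groups of the 5, at 137.0, 142.44 and 137.75 FPKM in sh-luc and 129.74, 131.71 and 129.5 FPKM in sh-IUR1. Its log2 difference was −0.09 ± 0.05 (SE), and unlike the other non-overlapping members it was highest in the r1 library of sh-luc, with a difference of −0.10 without the unnumbered sh-luc library. NDUFA1 was at 213.87, 185.67 and 182.97 FPKM against 173.62, 181.24 and 166.96 FPKM. NDUFC2 was at 83.15, 70.93 and 70.75 FPKM against 66.27, 67.22 and 70.0 FPKM. In both genes the lowest sh-luc and the highest sh-IUR1 library differed by less than 2 FPKM, and without the unnumbered sh-luc library the log2 differences were −0.08 and −0.06.

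On the higher side, the smallest unadjusted p of complex I after NDUFS7 was that of NDUFV3, a subunit of the NADH-binding module, which was at 58.21, 67.27 and 63.02 FPKM in sh-luc and 69.02, 69.29 and 64.95 FPKM in sh-IUR1. The groups overlapped, and its log2 difference was 0.11 ± 0.07 (SE, adjusted p = 0.930 in limma), or 0.06 without the unnumbered sh-luc library. NDUFA11, a membrane-arm subunit, had a log2 difference of 0.05 ± 0.07 (SE). NDUFB3 had one of the largest spreads of the members, at 65.35, 44.32 and 45.78 FPKM in sh-luc and 48.29, 44.1 and 49.46 FPKM in sh-IUR1, and its log2 difference of −0.11 became 0.07 without the unnumbered sh-luc library.

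Complex II, the succinate dehydrogenase, is encoded wholly in the nucleus and links the citric acid cycle to the chain. SDHA, the flavoprotein, was at 111.72, 115.28 and 118.83 FPKM in sh-luc and 120.41, 122.77 and 118.79 FPKM in sh-IUR1. The groups met at 118.83 and 118.79 FPKM, and the log2 difference was 0.07 ± 0.05 (SE), or 0.04 without the unnumbered sh-luc library. The other subunits lay on the opposite side of 0. SDHB, the iron-sulfur subunit, was at 131 ± 8.14 FPKM in sh-luc and 125 ± 3.16 FPKM in sh-IUR1 (SD, n = 3), and SDHD was at 140 ± 8.42 and 133 ± 6.65 FPKM, both with overlap. SDHC was at 47.37, 43.69 and 44.51 FPKM in sh-luc and 42.54, 40.86 and 43.62 FPKM in sh-IUR1, without overlap but with 43.69 and 43.62 FPKM as neighbours, and its log2 difference was −0.09 ± 0.06 (SE, unadjusted p = 0.166 in limma), or −0.06 without the unnumbered sh-luc library.

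In complex III, the cytochrome bc1 complex, the Rieske iron-sulfur protein UQCRFS1 had the lowest difference. It was at 186.87, 171.21 and 182.16 FPKM in sh-luc and 163.64, 159.63 and 168.74 FPKM in sh-IUR1, with no overlap and a log2 difference of −0.13 ± 0.06 (SE, unadjusted p = 0.0409 and adjusted p = 0.930 in limma). The difference was −0.11 without the unnumbered sh-luc library. CYC1, which carries the heme of cytochrome c1, was at 217 ± 9.78 FPKM in sh-luc and 216 ± 7.39 FPKM in sh-IUR1 (SD, n = 3), a log2 difference of −0.0049 with a 95% interval of −0.13 to 0.12. The core proteins UQCRC1 and UQCRC2 had log2 differences of 0.02 and −0.04. UQCRH was at 1103.86 FPKM in the unnumbered sh-luc library and between 858.12 and 917.64 FPKM in the other 5, so that its log2 difference of −0.09 became 0.01 without that library.

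In complex IV, cytochrome c oxidase, the nuclear genes encode the subunits around the mitochondrially encoded catalytic ones, and several have tissue isoforms. COX4I1 was at 917 ± 40.7 FPKM in sh-luc and 893 ± 41.4 FPKM in sh-IUR1 (SD, n = 3), and its hypoxia-linked isoform COX4I2 was not listed. COX5A and COX5B had log2 differences of −0.05 ± 0.06 and −0.09 ± 0.08 (SE), the latter −0.0119 without the unnumbered sh-luc library. COX6B1, which faces the intermembrane space, had the lowest difference of all members. It was at 501.14, 429.93 and 412.64 FPKM in sh-luc and 363.86, 403.65 and 409.52 FPKM in sh-IUR1, a log2 difference of −0.19 ± 0.08 (SE, unadjusted p = 0.043 and adjusted p = 0.930 in limma). The r2 libraries of the groups differed by about as little as 412.64 and 409.52 FPKM, the unnumbered ones the most, and the difference was −0.10 without the unnumbered sh-luc library.

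Of the paired isoforms of complex IV, the widely expressed form was the abundant one in each pair. COX6A1 (565 FPKM), COX7B (325 FPKM) and COX8A (521 FPKM) were listed and COX6A2, COX7B2 and COX8C were not. COX7A2 was at 357.91, 303.01 and 289.57 FPKM in sh-luc and 271.28, 284.8 and 289.13 FPKM in sh-IUR1, with no overlap by a margin of 289.57 to 289.13 FPKM and a log2 difference of −0.16 that was −0.07 without the unnumbered sh-luc library. COX7A2L, which takes part in joining complexes III and IV into supercomplexes, was at 123 FPKM, with a log2 difference of 0.02, and the muscle form COX7A1 was not listed. COX7B and COX6C had wide spreads, since the unnumbered sh-luc library held 422.36 and 100.77 FPKM of them and the other 5 held at most 328.16 and 84.19 FPKM, and their log2 differences of −0.14 and −0.12 became 0.02 and 0.01 without it. NDUFA4, now counted with complex IV and named COXFA4 in RefSeq, fell outside the rule, and it was at 80.32, 70.14 and 66.48 FPKM in sh-luc and 67.45, 68.2 and 69.4 FPKM in sh-IUR1. Its paralog COXFA4L2 was at 0.85 ± 0.21 and 0.83 ± 0.21 FPKM (SD, n = 3).

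Complex V joins a catalytic head (F1) to a proton-driven rotor and stalk in the membrane (Fo). ATP5F1B, the catalytic subunit, was the steadiest member, at 957.84, 938.35 and 964.67 FPKM in sh-luc and 961.04, 969.84 and 947.32 FPKM in sh-IUR1, a log2 difference of 0.01 with a 95% interval of −0.10 to 0.12. ATP5F1A and ATP5F1C, the alpha and gamma subunits of the head, had log2 differences of −0.03 and −0.02. The 3 genes ATP5MC1, ATP5MC2 and ATP5MC3, which encode the same mature c subunit of the rotor ring, were at 158, 707 and 194 FPKM, with log2 differences of −0.05, −0.01 and −0.10, which were 0.02, 0.02 and −0.0074 without the unnumbered sh-luc library. ATP5MF, the f subunit of the membrane part, was at 910.71, 768.33 and 788.79 FPKM in sh-luc and 701.59, 738.54 and 753.18 FPKM in sh-IUR1, without overlap and with a log2 difference of −0.17 ± 0.07 (SE, unadjusted p = 0.0439 in limma) that was −0.09 without the unnumbered sh-luc library. ATP5MK, a small subunit that supports dimers of the synthase, was at 183.65 FPKM in the unnumbered sh-luc library and between 122.11 and 140.06 FPKM in the other 5, and its log2 difference of −0.17 became −0.02 without that library.

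**Figure D3:**
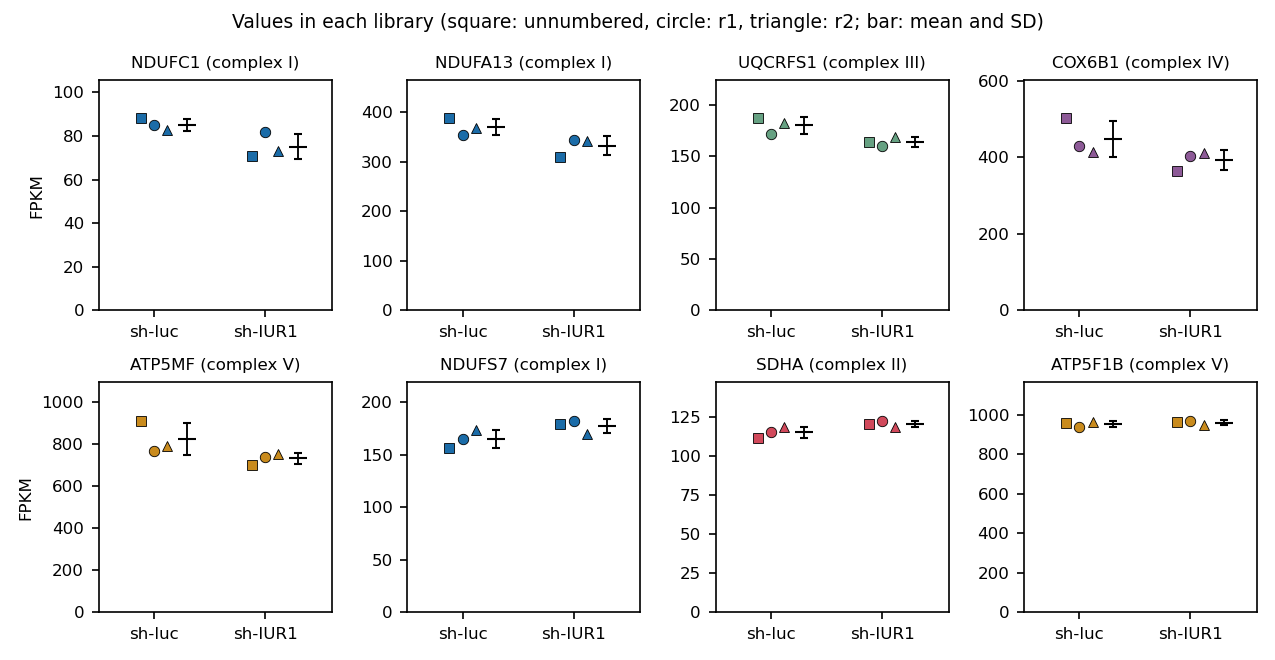
FPKM of 8 subunit genes in each library (squares for unnumbered, circles for r1 and triangles for r2), with the mean and SD of each group (n = 3) as bars. NDUFC1, NDUFA13, UQCRFS1, COX6B1 and ATP5MF are lower in all 3 sh-IUR1 libraries, whereas NDUFS7, SDHA and ATP5F1B overlap between the groups.

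The members were high together in the unnumbered sh-luc library. It was the highest of the 6 libraries for 56 of 79 members (70.9%), against 24.1% of all genes tested, and the members took 3.30% of the summed FPKM there compared with 2.98% to 3.06% in the other 5. The tested members had a median level of 153 FPKM against 10.6 FPKM for all genes tested, and no background of like abundance was made. The unnumbered sh-luc library was also the highest for 9 of 18 K562 and erythroid markers (median 121 FPKM). It was so for 0 of the 22 stress response genes described below (median 82.2 FPKM). The mean log2(FPKM + 1) over the members stood at 7.34, 7.18 and 7.20 for the sh-luc libraries, compared with 7.17, 7.20 and 7.18 for those of sh-IUR1, so that the numbered sh-luc libraries lay within the range of the sh-IUR1 libraries or less than 0.01 beyond it. The ratio of this library to the mean of the other 5 had a median of 1.13 over the members, against 0.97 over all genes tested, and exceeded 1.1 for 59.5% of the members against 22.0% of all genes. It was highest for NDUFB3 (1.41), ATP5MK and COX7B (both 1.38), and lowest for NDUFV3 (0.87) and NDUFS7 (0.90) among members over 1 FPKM.

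Every complex showed the excess in that library, and to unequal degree. It was the highest library for 25 of 37 members of complex I, 3 of 4 of complex II, 6 of 9 of complex III, 8 of 12 of complex IV and 14 of 17 of complex V. The median ratio to the other 5 libraries ran from 1.1 for complex II to 1.15 for complex V. For the 21 core subunits the median ratio was 1.04 and the library was highest for 11, whereas for the 58 other tested subunits it was 1.15 and highest for 45. These 2 sets also differed in length, with a median canonical transcript of 1308 bases for the core and 664.5 bases for the others. The part of length in this contrast was not tested. As the excess follows libraries seen in the data and not a group of the study, no test was made.

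Other measures moved with that library. The 22 tested genes of the integrated stress response (of 23 in the list, among them ATF4, DDIT3 and ASNS) were at their lowest there for 22 of 22. Of all genes tested, 38.4% were at their lowest there. The mean log2(FPKM + 1) of the 22 genes was 5.10 against 5.78 to 6.25 in the other 5. Earlier results of these data had shown this list to differ between libraries, so these values describe a known difference. The members are short, with a median canonical transcript of 763 bases against 3128 bases for all genes tested. Among genes of at most 600 bases, the library was highest for 17 of 21 members (81.0%) and for 39.4% of 213 other genes, and among genes over 2000 bases for 11 of 16 members (68.8%) and 22.0% of 8659 other genes. The lowest share was in the class of 1200 to 2000 bases, with 5 of 11 members (45.5%) and 25.8% of other genes. After the libraries were corrected for transcript GC content and length, the median log2 difference of the members was −0.05 against −0.01 for all genes, and 65 of 79 members were below 0. The part of stress, length or library preparation in the members' levels was not tested.

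**Figure D4:**
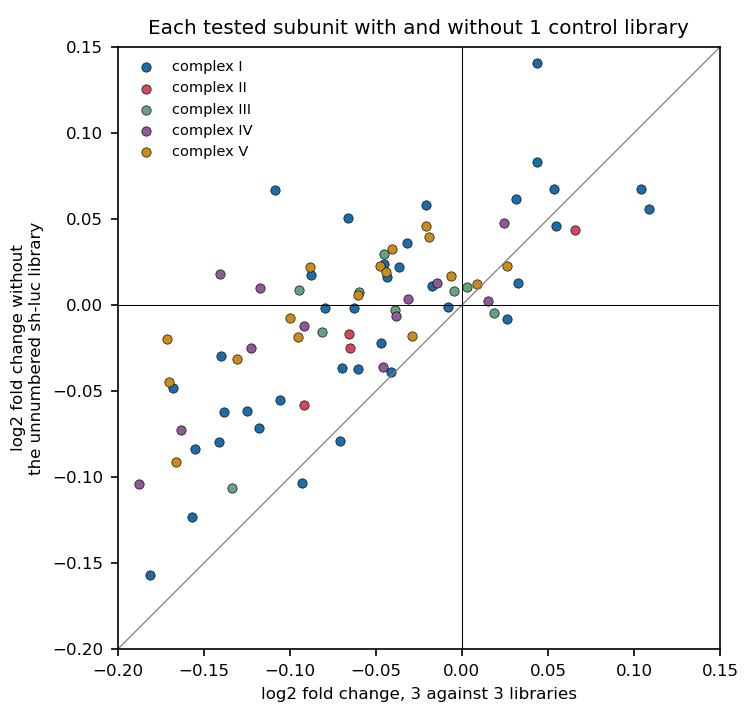
Log2 fold change of each tested subunit gene with all 6 libraries (horizontal axis) and without the unnumbered sh-luc library (vertical axis), coloured by complex, with the line of equality. The points lie mostly above the line, and the vertical values are centred near 0 (median −0.0009).

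Genes that build, encode or control the chain were read from the same fit. Of 63 assembly factors, all tested, 42 were below 0, with a median log2 difference of −0.03, against 42.0% of all genes below 0 and a median of 0.02. At an unadjusted p under 0.05 in limma, 2 were lower (0.994% of all genes) and 1 was higher (1.65%). These were UQCC5 (−0.30), a complex III assembly factor, SDHAF2 (−0.18), which adds the flavin to SDHA, and SDHAF4 (0.27), another SDHA chaperone. UQCC5 was at 32.5, 26.21 and 29.63 FPKM in sh-luc and 25.18, 21.93 and 23.81 FPKM in sh-IUR1, with no overlap and an adjusted p of 0.930 in limma. Of the 63, 3 were lower in sh-IUR1 without overlap (3.03% of all genes) and 1 was higher (4.04%). The unnumbered sh-luc library was the highest for 29 of the 63. Without it the median was −0.02, and 38 of the 63 were below 0, against 5809 of 12276 genes. UQCC5, SDHAF2 and SDHAF4 were then at −0.23, −0.13 and 0.19. None of the 13 mitochondrially encoded subunits was listed in the table, so the levels of the nuclear and mitochondrial parts were not compared.

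Of 22 regulators of respiratory chain genes, 21 were tested (PPARGC1A was not listed), 12 were below 0 and 0 had an unadjusted p under 0.05 in limma, with a median log2 difference of −0.01. NRF1, GABPA and YY1, the factors whose letters were searched in the promoters, had log2 differences of 0.05, 0.03 and −0.01 at 10.5, 8.07 and 30.8 FPKM, with overlap between the groups, and of −0.0014, 0.10 and −0.04 without the unnumbered sh-luc library. The 26 members with at least 1 of the motifs had a median log2 difference of −0.07 and the 40 members with a window and no match −0.05. Without the unnumbered sh-luc library these medians were −0.0032 and 0.0008. That library was the highest for 21 of the 26 and for 26 of the 40. Of 29 electron carriers and other genes of the mitochondrial membranes, 14 were below 0, with a median of 0.02 and 0 at an unadjusted p under 0.05. DHODH, VDAC2 and CHCHD3, of pyrimidine synthesis, the outer-membrane channel and cristae, were lower in sh-IUR1 without overlap (3.03% of all genes), by log2 differences of −0.09, −0.08 and −0.07. Of the 29, 0 were higher without overlap (4.04% of all genes). Among 20 targets of the hypoxia-inducible factors, which are known to shift cells from respiration to glycolysis, 17 were tested under the symbols listed. Of these 17, 11 were above 0, as were 7119 of the 12276 genes tested, with a median of 0.07. NDRG1 (0.22) was at an unadjusted p under 0.05 in limma (1.65% of all genes were higher at that p). NDRG1 and EGLN3 (0.18) were higher in sh-IUR1 without overlap (4.04% of all genes), and 0 of the 17 were lower without overlap (3.03%). A further target, NDUFA4L2, was tested under its RefSeq symbol COXFA4L2 and is not in these counts. Its log2 difference was −0.01.

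The FPKM of all listed genes summed to between 579820 and 606240 per library, and Pearson's r between libraries over the 12276 genes was 0.990 to 0.998, as a description. The labelled line was checked by its markers. All 18 K562 and erythroid markers were listed, with HBG2 at 2915 FPKM and GATA1 at 194 FPKM, and their mean log2(FPKM + 1) ran from 6.92 to 7.04 over the libraries. Of 10 lymphoid markers 3 were at a mean of at least 0.1 FPKM, with CD3D highest at 4.11 FPKM, and of 6 monocyte and macrophage markers 3, with LYZ at 114 FPKM. Of 9 fibroblast and epithelial markers 5 were, with KRT8 at 361 FPKM and COL1A1 at 0.27 FPKM. The summed FPKM per library was 4.49 to 6.27 for the lymphoid, 117 to 130 for the monocyte and 740 to 784 for the fibroblast and epithelial markers.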

How the data were processed

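Total RNA of 6 K562 libraries (3 sh-luc, 3 sh-IUR1, which the methods describe as independent groups of cells) was sequenced. The authors removed adaptor sequence, masked stretches of low quality or complexity, aligned to hg38 and name RPKM and SAMtools 0.1.19 for quantification, and the values they deposited are FPKM with 2 decimals. The aligner and annotation are not given in the sources used here. The deposited table also holds a score (the standardized value of a gene per library), a cluster number and a fraction (cluster membership), which were not used. Genes are listed by Entrez identifier, of which 12363 of 12486 matched a RefSeq symbol (GRCh38.p14).

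Values were transformed to log2(FPKM + 1), so that fold changes of low genes are understated. limma 3.58.1 (R 4.3.3, lmFit and eBayes with trend) was run on the 12276 genes that averaged 0.1 FPKM or more. The model held the group alone, and Benjamini-Hochberg adjustment covered all of these genes. Transcript lengths and GC content are from GENCODE release 44 canonical transcripts. The fit was tested on simulated data. The files hold no counts, and the number of fragments behind each value was not derived here, so no counting interval is given.

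The members and lists were chosen with earlier results of these data known. Members named are the core subunits, the paralogous isoforms, the 5 per direction with the smallest unadjusted p, the highest and lowest of each complex, the 5 with the largest SD and every member without overlap, and 1 of them is not reported here. Alternatives were quantile normalization or median-ratio scaling of the libraries, a pseudocount of 0.1, a minimum mean of 1 FPKM or none, an ordinary linear model, eBayes without trend, the replicate number as a block, and leaving out each library. A loess correction (span 0.5) for GC content and length was added after the data were seen. Other steps used Python 3.11.15 with numpy 2.4.6, pandas 2.3.3 and matplotlib 3.10.9.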

Additional observations from a re-analysis of the deposited data

How the results depend on the processing

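Under every alternative 0 of the members, and 0 of all genes, passed an adjusted p of 0.05, in limma and in the ordinary linear model, while 158 to 856 genes had an unadjusted p under 0.05. At an unadjusted p under 0.05 there were 5 members (beside 325 of all genes tested). They became 1 with eBayes without trend (342 genes) and 2 with the ordinary linear model (344). With the replicate block they were 2 (533), and with the correction for GC content and length 3 (440). With a library left out they were between 0 and 9. Of sh-luc, they were 1 without the unnumbered library (221 genes), 6 without r1 (856) and 9 without r2 (297). Of sh-IUR1, they were 0 without the unnumbered library (158), 6 without r1 (232) and 3 without r2 (711). In most of these alternatives the share of the 79 members was near or below that of all 12276 genes. It was so with eBayes without trend, the ordinary linear model, the replicate block and the correction for GC content and length. It was also so when the unnumbered library of sh-luc or of sh-IUR1, r1 of sh-luc, or r2 of sh-IUR1 was left out. The 11 members without overlap became 5 with the correction for GC content and length, and 12 to 22 with a library left out, which smaller groups give by construction. The share of all genes without overlap was not derived under these alternatives. These counts can therefore not be set against a background. The median log2 difference of all members was −0.0806 with median-ratio scaling and −0.0398 with quantile normalization, and −0.0916 to −0.0009 with a library left out, the last without the unnumbered sh-luc library. With a library left out, the median was −0.0950 to −0.0018 for complex I, −0.0984 to −0.0208 for complex II, −0.0891 to 0.0076 for complex III, −0.0908 to −0.0020 for complex IV and −0.0825 to 0.0120 for complex V, in each case nearest to 0 or above it without the unnumbered sh-luc library. Where another cause is not named, the cause was not tested.

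Of 673 values of 45 named members under the alternatives, 622 kept their sign and 51, in 21 members, did not. With quantile normalization these were ATP5MC2 (0.0568), COX4I1 (0.0021), COX6A1 (0.0126), COX6B2 (−0.0211), COX8A (0.0047), CYC1 (0.0302) and NDUFS8 (0.0111). With the correction for GC content and length they were ATP5F1B (−0.0001), ATP5MC2 (0.0013), COX6A1 (0.0034), COX6B2 (−0.0145), NDUFS1 (−0.0045), NDUFV1 (−0.0106) and UQCRC1 (−0.0143), and with median-ratio scaling ATP5F1B (−0.0120) and UQCRC1 (−0.0019). With a library left out, the log2 difference ran from −0.0028 to 0.0178 for ATP5F1B, −0.0493 to 0.0398 for ATP5F1C, −0.0936 to 0.0226 for ATP5MC1, −0.0665 to 0.0395 for ATP5MC2, −0.0541 to 0.0126 for COX6A1, −0.0440 to 0.0875 for COX6B2 and −0.2404 to 0.0097 for COX6C. It ran from −0.0207 to 0.0730 for COX7A2L, −0.2301 to 0.0183 for COX7B, −0.0504 to 0.0035 for COX8A, −0.0422 to 0.0194 for CYC1, −0.0014 to 0.0944 for NDUFA11, −0.2081 to 0.0668 for NDUFB3 and −0.1282 to 0.1405 for NDUFC2-KCTD14. It ran from −0.0278 to 0.0617 for NDUFS1, −0.0706 to 0.0317 for NDUFS8, −0.0083 to 0.0726 for NDUFV1, −0.0984 to 0.0162 for NDUFV2, −0.0147 to 0.0618 for UQCRC1 and −0.1632 to 0.0086 for UQCRH.

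The labels do not say whether libraries of the same number were paired. Deviations from the group means of same-numbered libraries correlated by 0.044 (unnumbered), 0.385 (r1) and −0.34 (r2) over all genes tested. The unnumbered and r2 libraries of sh-luc correlated best with libraries of another number, and r1 of sh-luc correlated best with r1 of sh-IUR1. Deviations cancel within a group, so these correlations depend on one another and cannot decide whether the libraries were paired. With the replicate block, 533 genes instead of 325 had an unadjusted p under 0.05. The values are FPKM of 3 libraries per group, which limits the precision: the median half-width of the 95% interval of a member was 0.15 on the log2 scale.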
